A study of Homo sapiens with 15 samples.

Results

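Chromatin immunoprecipitation followed by sequencing (ChIP-seq) placed MYC and WDR5 on the genome of HEK293, an established line of human embryonic kidney origin. The sites described here are the promoters of 10 genes for proteins of the large ribosomal subunit: RPL5, RPL11, RPL22, RPL10A, RPL35, RPL13A, RPL19, RPL23, RPL27 and RPL32. Members are the peaks with a base within 2 kb of the hg19 start of each gene. They number 20, of 20388 peaks in 3 lists, and all 10 starts have at least 1. The genes and starts were chosen with the peak lists known, so presence of peaks, their line in the file, width and centre distances are given as descriptions, without a test.

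HEK293 cells were transduced with a retrovirus to express wild-type MYC (WT-MYC) or a mutant deficient for WDR5 binding (WBM-MYC), both with a FLAG tag. Control cells received an empty vector, and M2 agarose was the anti-FLAG reagent for these 3 groups. In HEK293 cells for which the labels name no retrovirus, endogenous WDR5 was precipitated with an antibody against it, and purified rabbit IgG served as the control. The tagged MYC proteins were added to the MYC that the cells make themselves, which the FLAG antibody does not recognise. Each of the 5 groups had 3 libraries from independent biological replicates, and 1 peak list was analysed for each of WT-MYC (2527 peaks), WBM-MYC (690) and WDR5 (17171). The lists do not show replicates separately, and their spread is therefore unknown. Peaks of the vector and IgG libraries, read depth and peak strength were not analysed here, and a start missing from a list may be bound below the unstated calling threshold.

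MYC is a transcription factor that pairs with MAX on E-boxes, whose canonical letters are CACGTG, and it is known for raising the output of ribosomes in growing cells. WDR5 is a scaffold of histone methyltransferase complexes at active promoters and binds a conserved stretch of MYC. Ribosomal protein genes are transcribed at high rates in nearly all cells and need to be expressed in balance, since nearly all of these proteins enter each ribosome in equal number.

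Promoter sequences were available for 8 of the 10 members, from the RefSeq table for GRCh38.p14, all but RPL5 and RPL23. The stretches below lie upstream of the RefSeq start and are written 5′ to 3′ on the strand of the gene. Their coordinates are in GRCh38.p14, and those of the peaks in hg19. Capitals mark CACGTG and CCGGAA, the core read by ETS-family factors, in either orientation. RPL19 and RPL22 are shown because both MYC forms had a peak there, RPL13A because its WT-MYC peak lay apart from the start, and RPL11 because WDR5 alone was found.
RPL19 (chr17:39200033-39200282, plus strand): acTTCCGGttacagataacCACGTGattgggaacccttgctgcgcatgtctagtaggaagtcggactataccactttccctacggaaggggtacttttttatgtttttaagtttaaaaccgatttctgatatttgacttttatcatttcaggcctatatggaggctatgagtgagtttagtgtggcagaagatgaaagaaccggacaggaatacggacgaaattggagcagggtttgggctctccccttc
RPL22 (chr1:6199596-6199845, minus strand): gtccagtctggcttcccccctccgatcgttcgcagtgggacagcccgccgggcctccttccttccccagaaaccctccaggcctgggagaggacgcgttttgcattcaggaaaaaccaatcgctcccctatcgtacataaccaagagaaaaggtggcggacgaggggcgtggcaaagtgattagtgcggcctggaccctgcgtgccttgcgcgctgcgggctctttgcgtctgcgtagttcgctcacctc
RPL13A (chr19:49487358-49487607, plus strand): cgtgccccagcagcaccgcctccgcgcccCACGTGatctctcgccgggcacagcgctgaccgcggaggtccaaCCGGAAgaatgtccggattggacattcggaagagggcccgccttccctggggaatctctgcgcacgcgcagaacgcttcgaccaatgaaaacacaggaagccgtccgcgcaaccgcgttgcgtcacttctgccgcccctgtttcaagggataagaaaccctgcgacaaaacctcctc
RPL11 (chr1:23691529-23691778, plus strand): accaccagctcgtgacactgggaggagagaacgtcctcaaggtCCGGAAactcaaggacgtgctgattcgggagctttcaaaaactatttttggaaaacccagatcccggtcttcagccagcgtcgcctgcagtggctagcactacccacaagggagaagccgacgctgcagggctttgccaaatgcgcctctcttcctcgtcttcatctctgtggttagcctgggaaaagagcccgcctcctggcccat

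The canonical E-box was in 2 of the 8 promoter windows, those of RPL19 and RPL13A, and in 0 of the 30 windows found for 36 other large-subunit genes. Windows run from 250 bases before to 50 after the start, both strands were searched, and 7.41% of 27326 windows of all genes held CACGTG. It began 231 bases upstream of the RefSeq start in RPL19 and 221 bases upstream in RPL13A. The WT-MYC peak of RPL19 reached 114 bp upstream of the hg19 start, and that of RPL13A began 120 bp downstream of it. At equal starts both E-boxes would thus lie outside the MYC peaks, but the starts of the 2 builds were not matched base by base. The windows, which end 50 bases after the start, also miss much of the peaks. At RPL22 the WT-MYC peak was centred 96.5 bp into the gene and reached 344 bp. The WBM-MYC peak of RPL22 was centred at 86.5 bp and reached 314 bp. At equal starts both centres lay outside the window, so the motifs of RPL22 are given for its window only. RPL22, with peaks of both MYC forms, had neither CACGTG nor the looser E-box CANNTG, which matches CACGTG too and was in 4 of 8 member windows, 46.7% of the other large-subunit windows and 69.0% of all windows.

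CCGGAA was in 5 of 8 member windows (62.5%: RPL11, RPL10A, RPL13A, RPL19 and RPL32), 43.3% of the other large-subunit windows and 17.6% of all. CTTTCC was in 3 of 8 (RPL35, RPL19 and RPL27), 15 of the 30 other large-subunit windows and 26.2% of all. GGGCGG, the core of SP1-type GC boxes, was in 3 of 8 (RPL35, RPL13A and RPL27), 56.7% of the other large-subunit windows and 44.5% of all. A YY1-type motif was in the window of RPL13A alone among the 8, in 2 of the 30 other large-subunit windows and in 1.25% of all. TATAAA was in 0 of the 8, 3 of the 30 and 12.0% of all. Each motif was searched on both strands, and the members were not tested against the other windows. A match of letters is a description of the window and shows no binding. The lack of a match says nothing of the bases beyond the window. All peak centres at the 8 genes lay at least 70 bp into the gene, past the 50 bases searched there if the starts are equal.

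WDR5 was at all 10 starts, WT-MYC at 8 and WBM-MYC at 2. Each list had at most 1 peak at a start. RPL22 and RPL19 carried all 3, RPL5, RPL10A, RPL35, RPL13A, RPL23 and RPL32 carried WDR5 and WT-MYC, and RPL11 and RPL27 carried WDR5 alone. No start had WBM-MYC without WT-MYC. Among all WDR5 peaks, 16.6% had a WT-MYC peak within 2 kb of the centre, 4.11% a WBM-MYC peak and 3.13% both. Nothing is read from the members' counts against these shares, since the peaks themselves chose the genes. At all 8 starts with WT-MYC, its peak overlapped the WDR5 peak, as 82.9% of all WT-MYC peaks did. The 2 of 8 with a WBM-MYC peak stand near the 20.9% of all WT-MYC peaks that overlapped one.

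**Figure D1:**
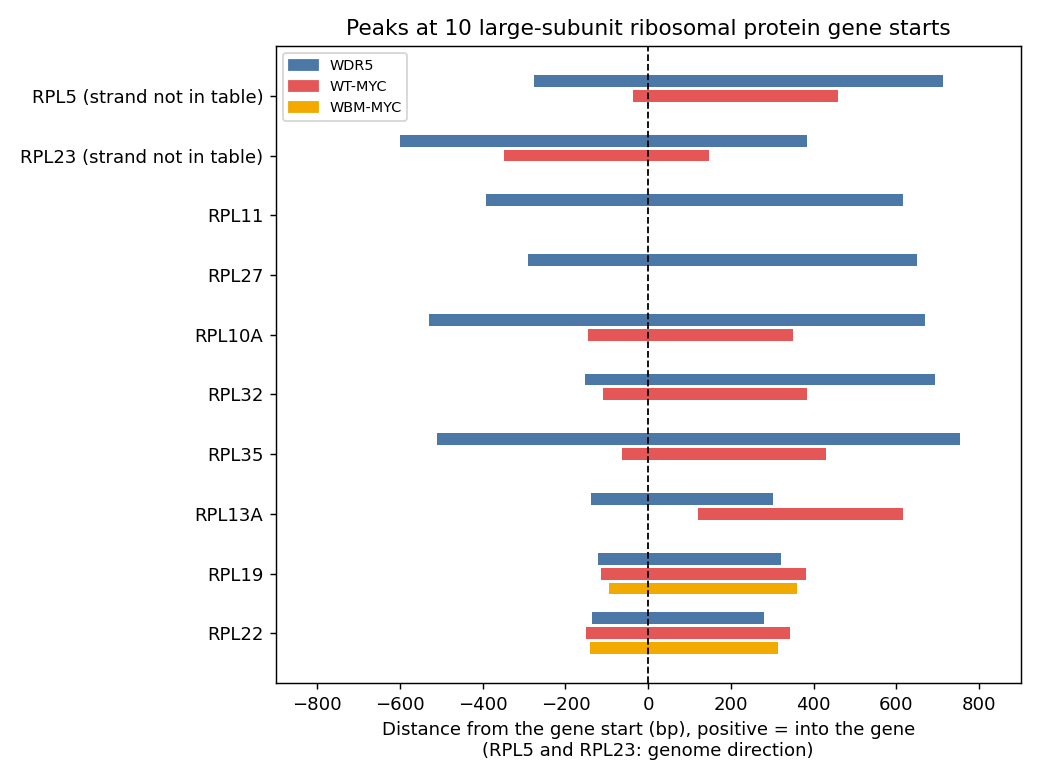
Peaks of WDR5, WT-MYC and WBM-MYC (bars) at the 10 gene starts, with distance from the hg19 start in bp on the x axis, positive into the gene, and in genome direction for RPL5 and RPL23. Genes are ordered by the line of their WDR5 peak. The upper 7 WDR5 bars are 847 to 1264 bp long and the lower 3 are 417 to 443 bp, and WBM-MYC is drawn at RPL19 and RPL22.

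RPL5, RPL11 and RPL23 encode proteins that, when free of the ribosome, bind MDM2, the ligase that holds p53 down. RPL5 had the first WDR5 peak of the whole list, at line 1 of 17171 (chromosome 1, 93297306 to 93298295, 990 bp). Its WT-MYC peak, at line 153 of 2527 (93297546 to 93298041), lay wholly inside the WDR5 peak, with the centres 7 bp apart. RPL23 gave much the same picture on chromosome 17. Its WDR5 peak was at line 15 (37009400 to 37010383, 984 bp) and its WT-MYC peak, again wholly inside, at line 115 (37009652 to 37010147), with the centres 8 bp apart. These are the earliest WT-MYC lines among the members, and neither start had a WBM-MYC peak. RPL11, the partner of RPL5 in the free complex, had a WDR5 peak at line 23 (chromosome 1, 24017876 to 24018884, 1009 bp) and no MYC peak. The nearest WT-MYC peak to RPL11 was 132 kb away, and the nearest WBM-MYC peak 2717 kb.

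RPL35 and RPL19 encode proteins placed around the exit of the tunnel through which the new chain leaves, and RPL10A makes the mobile stalk where spent tRNA departs. RPL10A had a WDR5 peak at line 28 (chromosome 6, 35435655 to 35436855, 1201 bp) around a WT-MYC peak at line 698 (35436040 to 35436535). RPL35 had the widest WDR5 peak of the 10, 1264 bp at line 34 (chromosome 9, 127623507 to 127624770), around the latest WT-MYC peak of the 8, line 1340 (127623829 to 127624324). The start of ARPC5L, a subunit of the actin-nucleating complex, lies on the opposite strand within 1 kb of RPL35 in the RefSeq table, so the peaks there cannot be assigned to 1 of the 2 genes. RPL19 differed from both in having a narrow WDR5 peak, 443 bp at line 676 (chromosome 17, 37356415 to 37356857). WT-MYC at line 650 (37356422 to 37356917) and WBM-MYC at line 600 of 690 (37356441 to 37356896) covered nearly the same bases there. The centres of the MYC peaks lay 1 bp apart at RPL19. In RefSeq another gene, LOC124903996, overlaps the stretch upstream of RPL19, and LOC124904006 overlaps that of RPL27. Which gene the peaks belong to was not examined there. Neighbouring genes were not looked for at RPL5 and RPL23, which the promoter table lacks.

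RPL22 and RPL13A are ribosomal proteins with known work outside the ribosome, RPL22 as an RNA-binding regulator in lymphoid development and RPL13A as a translational silencer in the interferon response. RPL22 had the latest and narrowest WDR5 peak of the members, 417 bp at line 3268 (chromosome 1, 6259398 to 6259814). Its WT-MYC peak (line 853, 6259335 to 6259830) and its WBM-MYC peak (line 125, 6259365 to 6259820) each spanned the WDR5 peak whole. RPL13A had a WDR5 peak of 441 bp at line 554 (chromosome 19, 49990672 to 49991112). Its WT-MYC peak at line 1189 (49990931 to 49991426) shared 182 bp with it, 36.7% of the WT-MYC peak, and lay on the gene side. It was the only 1 of the 20 peaks that did not cover the gene start.

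RPL27 and RPL32 are further core proteins of the subunit, and both had wide, early WDR5 peaks. At RPL27 the WDR5 peak was 940 bp at line 25 (chromosome 17, 41150156 to 41151095), with no MYC peak and the nearest WT-MYC peak 33.7 kb away. At RPL32 it was 847 bp at line 33 (chromosome 3, 12882394 to 12883240), around a WT-MYC peak at line 321 (12882702 to 12883197). RPL32 had no WBM-MYC peak, and the nearest was 15400 kb away. Among the 8 starts without WBM-MYC, that distance was shortest for RPL23, at 147 kb. All members lay well inside the 2 kb limit: the farthest peak within it was 120 bp from its start, and the nearest peak beyond it was a WDR5 peak 2303 bp from RPL19.

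WDR5 peaks at the members fell into a wide, early set and a narrow, later one. The 7 peaks at RPL5, RPL23, RPL11, RPL27, RPL10A, RPL32 and RPL35 held lines 1, 15, 23, 25, 28, 33 and 34 and were 847 to 1264 bp wide (median 990 bp). Those at RPL13A, RPL19 and RPL22 held lines 554, 676 and 3268 and were 417 to 443 bp wide. Later is relative to the other members, as these lines are only 3.23, 3.94 and 19.0% of the way into the list. The median of the whole list was 419 bp, and 333 of its 17171 peaks (1.94%) were at least 847 bp wide. Width and file position go together at the head of the list: the other 27 peaks up to line 34 were 834 to 1562 bp wide, with a median of 1154 bp. The sources used here do not say how the list is ordered, so an early line is not a measured strength.

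**Figure D2:**
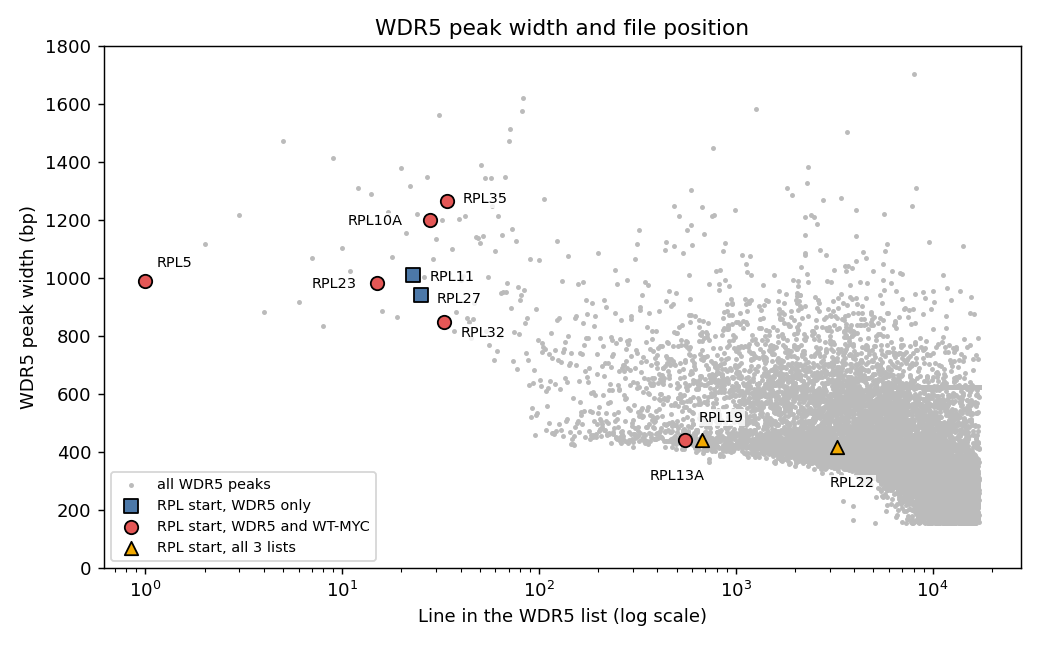
Width in bp (y axis) of each WDR5 peak against its line in the file (x axis, log scale), with all 17171 peaks in grey and the 10 ribosomal protein gene starts marked by which lists had a peak. The 7 wide peaks sit at lines 1 to 34, and the 2 starts with all 3 lists sit at lines 676 and 3268 with widths of 443 and 417 bp.

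Both starts with WBM-MYC belonged to the narrow, later set, so 2 of 3 narrow peaks and 0 of 7 wide peaks had the mutant. RPL13A, the third narrow one, had WT-MYC only. Over the whole list the order was the other way: 15.0% of WDR5 peaks at least 847 bp wide had a WBM-MYC peak within 2 kb of the centre, against 3.90% of narrower ones. WT-MYC was found at 5 of the 7 wide member peaks and at 3 of 3 narrow ones, and in the whole list at 53.5% and 15.9%. File position was not matched in these shares. The median line of all peaks under 847 bp was 8736.5, against lines 554, 676 and 3268 for the 3 narrow member peaks. In lines 1 to 1717, at all widths, 38.6% of WDR5 peaks had WT-MYC within 2 kb and 13.1% had WBM-MYC. The limit of 847 bp is itself the width of a member peak, that of RPL32, the narrowest of the 7. These few sites, chosen by their peaks, cannot put the contrast with the whole list to a test.

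WT-MYC was also found near most other peaks at the head of the WDR5 list. Of the other 27 WDR5 peaks up to line 34, 23 had a WT-MYC peak within 2 kb (85.2%, exact Clopper-Pearson 95% interval 66.3 to 95.8%), while WBM-MYC was near 3 of them (11.1%, 2.35 to 29.2%). In the first 172 lines (1% of the list) without the members, the shares were 55.8% (47.8 to 63.5%) and 15.2% (10.1 to 21.5%). The line at which the shorter stretch ends is that of a member, and the intervals cover counting error over peaks only.

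WT-MYC peaks at the members were spread over deciles 1 to 6 of the WT-MYC list, where a decile is 1 of 10 equal parts in file order. The share of all WT-MYC peaks that overlapped WBM-MYC was 60.5% in decile 1 (54.2 to 66.5%), 41.5% in decile 2, 26.5% in decile 3, 20.6% in decile 4, 15.0% in decile 5 and 11.5% in decile 6. RPL5 and RPL23 in decile 1 and RPL32 in decile 2 had no WBM-MYC peak. The 2 starts with WBM-MYC came later, RPL19 in decile 3, which RPL10A without WBM-MYC shared, and RPL22 in decile 4. RPL13A and RPL35, in deciles 5 and 6, had none. The 3 earliest WT-MYC peaks of the members thus stood where WBM-MYC was commonest in the whole list and lacked it, which 8 sites chosen by their peaks cannot put to a test.

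**Figure D3:**
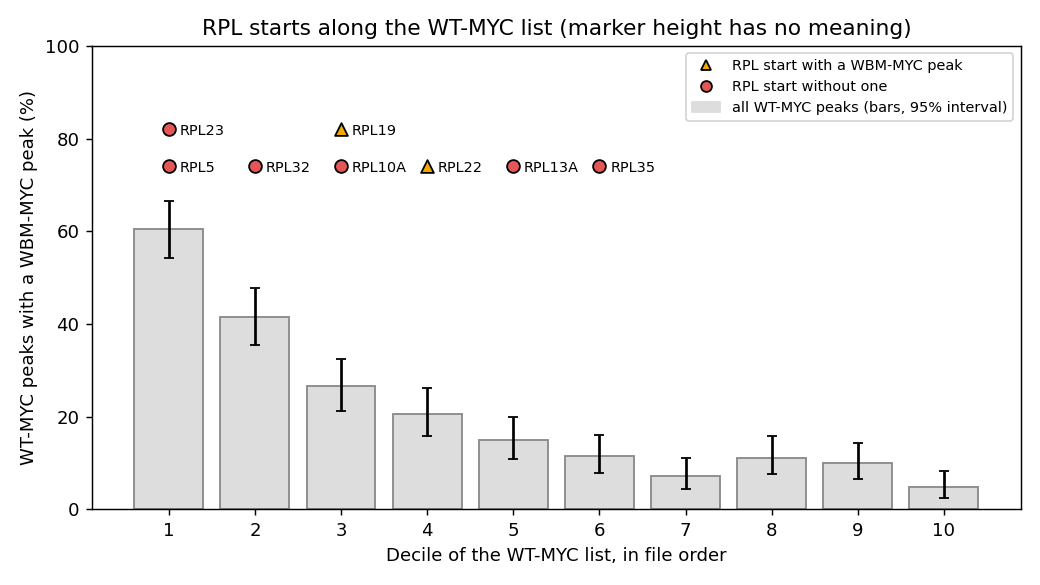
Share in % of WT-MYC peaks that overlap a WBM-MYC peak (bars, with exact 95% intervals) in each decile of the WT-MYC list in file order, and the decile in which each ribosomal protein gene start falls (markers, whose height has no meaning). The first bar stands at 60.5% and the last at 4.76%, RPL5 and RPL23 stand over the first bar without WBM-MYC, and RPL19 and RPL22 stand over bars 3 and 4 with it.

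WBM-MYC peaks at RPL19 and RPL22 lay almost on the WT-MYC peaks. Their centres were 1 bp and 10 bp apart, against a median of 33 bp (quartiles 10.5 and 72.5 bp) over all 527 pairs of overlapping MYC peaks. Both WBM-MYC peaks overlapped a WT-MYC and a WDR5 peak, as 72.0 and 75.5% of all WBM-MYC peaks did. The 456 bp of each WBM-MYC peak fell wholly inside the WT-MYC peak. As 97.9% of WT-MYC peaks are 496 bp wide and 99.3% of WBM-MYC peaks 456 bp, these widths carry no information on the sites. The centres of WBM-MYC and WDR5 were 32.5 bp apart at RPL19 and 13.5 bp at RPL22, below the median of 80 bp over 521 pairs.

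At the 8 starts with WT-MYC, the median distance from its centre to that of WDR5 was 33.0 bp, with 7 bp at RPL5 and 286.5 bp at RPL13A as the extremes. Over all 2096 overlapping pairs the median was 71 bp (quartiles 28 and 138 bp). Between these extremes the distance was 8 bp at RPL23, 23.5 bp at RPL22, 32.5 bp at RPL10A, 33.5 bp at RPL19, 62 bp at RPL35 and 132.5 bp at RPL32. Of all pairs, 6.68% were at least as far apart as those of RPL13A. At RPL5, RPL23, RPL10A, RPL35 and RPL32 the WT-MYC peak lay wholly inside the WDR5 peak, as 24.4% of all overlapping WT-MYC peaks did. This restates the WDR5 widths, since a WT-MYC peak of 496 bp fits within the wide WDR5 peaks and is longer than the narrow ones at RPL13A, RPL19 and RPL22.

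**Figure D4:**
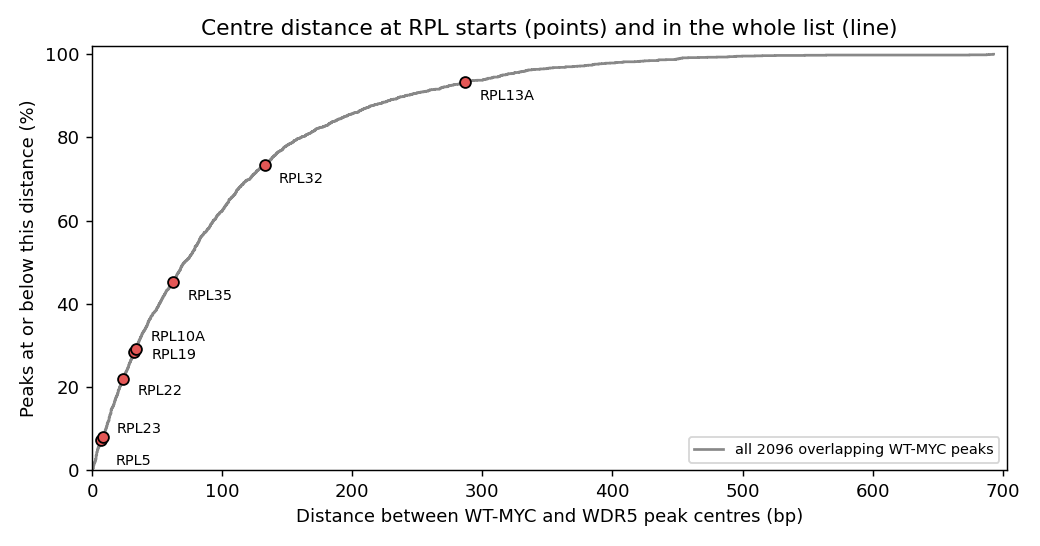
Cumulative share in % (y axis) of the 2096 overlapping WT-MYC peaks by the distance in bp between their centre and that of the nearest overlapping WDR5 peak (line), with the 8 ribosomal protein gene starts as points on it. RPL5 and RPL23 are at 7 and 8 bp, and RPL13A is at 286.5 bp.

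Where the strand was known from the promoter table, all peaks were centred on the gene side of the start. This held for 8 of 8 WDR5, 6 of 6 WT-MYC and 2 of 2 WBM-MYC peaks. WDR5 centres lay 70 bp (RPL10A) to 270 bp (RPL32) into the gene, with 73 bp at RPL22, 81 bp at RPL13A, 100.0 bp at RPL19, 111 bp at RPL11, 121.5 bp at RPL35 and 179.5 bp at RPL27. WT-MYC centres lay 96.5 bp (RPL22), 102.5 bp (RPL10A), 133.5 bp (RPL19), 137.5 bp (RPL32), 183.5 bp (RPL35) and 367.5 bp (RPL13A) into the gene. At RPL5 the WT-MYC and WDR5 centres were 211.5 and 218.5 bp above the start in genome coordinates, and at RPL23 they were 100.5 and 108.5 bp below it. Among the 8 genes of known strand, WDR5 peaks reached farthest upstream of the start at RPL10A (530 bp) and RPL35 (510 bp) and least at RPL19 (121 bp). All 10 WDR5 peaks, 7 of 8 WT-MYC peaks and both WBM-MYC peaks covered the start. Starts of other genes in hg19 were not used here, so no background can be given for the side.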

How the data were processed

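The authors deposited 1 peak list for each of WT-MYC, WBM-MYC and WDR5, whose only other values beside the chromosome are start and end coordinates, with no header or score. The vector and IgG groups enter no comparison here. Bowtie 0.12.7 (an aligner), CASAVA 1.8.2 and the build hg19 are named per the submitters' processing notes. The sources used here give no peak caller or threshold, nor how controls and replicates entered the calls. Starts were converted to 1-based positions. Peaks within 2 kb of a start, by their nearest base, were taken with Python 3.11.15, and overlap meant at least 1 bp. File position was read as a line number or decile of a list. Intervals are exact (SciPy 1.17.1). Motifs were searched in RefSeq windows of GRCh38.p14 matched by symbol, the outermost window per gene. The 10 members, motifs and comparisons were chosen with earlier results of these data known, and all 10 members are named. No test was run, since the lists chose the members. Overlap code was tested on simulated data, where 621 of 621 planted overlaps among 2000 peaks were found. Alternatives covered the window, the overlap rule, merging, list length and choice of peak. An hg19 annotation was not used here, so peaks at the other large-subunit genes were not counted.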

Additional observations from a re-analysis of the deposited data

How the results depend on the processing

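The counts and median distances at the starts (13 results) were recomputed with windows of 500 bp, 1 kb and 5 kb, with peak centres, with the first 50% of each list, with an overlap of 50% of the shorter peak, with overlapping neighbours merged, and with other choices of peak. They stayed within 1.5 times or within their spread over the sites in 86 of 90 recomputations. Most of these could hardly move, since each list had at most 1 peak within 2 kb of a start, all close to it. The windows, peak centres, merging and other choices of peak all repeated the main values, so 86 of 90 is no measure of robustness. Values changed only with the first 50% of each list and with the overlap of 50%. The 4 that moved came with the first 50% of each list, which leaves out the WBM-MYC peak of RPL19. Sites with WBM-MYC, sites with all 3 lists, and sites where WBM-MYC overlapped WDR5 or WT-MYC then each numbered 1, in place of 2. The same setting also left out the WT-MYC peak of RPL35. Sites with WT-MYC then numbered 7 in place of 8, which is inside the limit of 1.5 times. Sites where WT-MYC overlapped WDR5 likewise went from 8 to 7, both there and with an overlap of 50% of the shorter peak. Of 18 recomputed background shares, 8 left their 95% interval. With the first 50% of each list, 71.8% of WT-MYC and 64.6% of WBM-MYC peaks had WDR5, and 10.9 and 2.70% of WDR5 peaks had WT-MYC and WBM-MYC. With an overlap of 50% of the shorter peak, these shares were 77.8, 71.2, 11.9 and 3.01%. These settings keep fewer peaks or pairs by construction. Starts of another hg19 annotation were not run. No paired analysis was possible because the 3 lists analysed each stand for a whole group and no result comes from a test, and replicates could not be left out in turn for the same reason.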

Other observations

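Beyond 2 kb, the surroundings of the 10 starts held 0 to 3 WT-MYC peaks within 100 kb (median 0.5, against 0 around all WDR5 peaks, quartiles 0 and 1). RPL13A had 3 further WT-MYC peaks, RPL5, RPL22, RPL35 and RPL27 had 1 each, and the other 5 had 0. WBM-MYC had 1 further peak within 100 kb of RPL22 and 0 around the other 9. Further WDR5 peaks within 100 kb ranged from 1 at RPL32 to 10 at RPL13A, with a median of 3.5, against a median of 2 (quartiles 1 and 4) around all WDR5 peaks. Within 1 Mb the members had 13 to 83 further WDR5 peaks, with RPL32 at 13 and RPL13A at 83. Their median of 28.0 lay inside the quartiles of 11 and 32 around all WDR5 peaks, whose median was 18. WT-MYC peaks within 1 Mb ranged from 2, at RPL10A, RPL35 and RPL32, to 20 at RPL13A. Their median was 4.5, against 2 around all WDR5 peaks (quartiles 1 and 5). For WBM-MYC the counts within 1 Mb ranged from 0 to 8. The median of 2.0 lay above the upper quartile around all WDR5 peaks (median 0, quartiles 0 and 1), which was not tested. For all 3 lists, RPL13A on chromosome 19 had the most peaks within 1 Mb of the 10 starts. The surroundings of RPL19 and RPL23 within 1 Mb overlap, so the 10 are not all separate. The nearest further WT-MYC peak to RPL19, 346 kb away, was the member peak of RPL23.

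Near RPL35, a further pair of WT-MYC and WDR5 peaks lay 6.75 and 6.82 kb away. Near RPL13A such a pair lay 8.32 and 8.69 kb away, and near RPL5 one lay 46.3 kb away in both lists. At RPL22 the next WT-MYC and WBM-MYC peaks were both 45.4 kb away.

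GC content of the 8 promoter windows ranged from 44.3% at RPL32 to 72.3% at RPL35, with a median of 59.5%, against 58.8% over the 30 other large-subunit windows and 58.3% over all genes. RPL19, with both MYC forms, had 47.0% and RPL22 61.3%.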
